A study of Mus musculus with 10 samples.

Results

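The genes described here are 35 genes of glycolysis and of the fate of its end product: glucose transporters, the enzymes from hexokinase to pyruvate kinase, lactate dehydrogenases and monocarboxylate transporters, and the enzymes and carrier that pass pyruvate into mitochondria. They were chosen by name, from their known place in the pathway, but with earlier results of these data known. Counts of calls among them are therefore not from a set picked independently of the data. They were found by matching gene IDs to the mouse GENCODE annotation. All 35 were found among the 54446 genes counted, and all 35 passed the filter on low counts.

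Messenger RNA was sequenced from smooth muscle cells of the mouse aorta, freed with collagenase and cultured to passage 2. The WWv group came from KitW/Wv mice and the WT group from wild type mice, with 5 libraries each, and the study asked what changes in vascular smooth muscle that lacks c-Kit signalling. Kit encodes c-Kit, a receptor tyrosine kinase whose ligand is stem cell factor, W is a null-like allele and Wv a hypomorphic missense allele of its kinase domain, and both act in every cell of the animal. The labels name 5 mice of each genotype without tying a library to a mouse, so the p-values measure the spread between these libraries. The sources used here give no sex, age, genetic background or culture batch.

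Glycolysis splits glucose into pyruvate in the cytosol, with an investment phase that spends ATP and a payoff phase that returns it. Phosphofructokinase is its main point of control, and fructose-2,6-bisphosphate, made and degraded by the Pfkfb enzymes, switches that enzyme on. Pyruvate is then either reduced to lactate and exported with protons through monocarboxylate transporters, or carried into mitochondria and oxidised by pyruvate dehydrogenase, which pyruvate dehydrogenase kinases switch off. Vascular smooth muscle is known for making much lactate even when oxygen is plentiful, and many glycolytic genes are textbook targets of the hypoxia-inducible factors.

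Library totals ranged from 42040255 to 53863661 counts. The level of Kit itself was 2.09, 0.929, 1.71, 3.01 and 2.25 CPM (counts scaled with the TMM factors to a common library total) in WWv replicates 1 to 5, against 3.19, 4.92, 4.07, 4.40 and 4.02 CPM in WT replicates 1 to 5, with no overlap, although neither allele need lower the transcript. The defining smooth muscle markers Acta2, Myh11, Tagln, Cnn1, Smtn and Lmod1 were all abundant, with a summed level of 16750 to 20130 CPM in WWv and 9941 to 13000 CPM in WT. WT 2 stood apart from the rest of its group: on the first principal component it lay at 20.2, inside the WWv range of 11.5 to 33.4, whereas the other WT libraries lay between −51.1 and −29.1. The scaling also moved with genotype, since the TMM factors were 0.957 to 0.984 in WWv and 1.01 to 1.06 in WT. In a culture, fewer cells of a kind and less RNA per cell cannot be told apart.

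Transcripts of the pathway were lower in WWv cells at most steps. By edgeR's quasi-likelihood test with Benjamini-Hochberg adjustment over all 15181 tested genes, 19 of the 35 members were lower in WWv, 1 was higher and 15 did not pass the threshold of 0.05. Over all tested genes 15.4% were called lower and 12.8% higher. The falls ran from 1.13-fold in Pfkm, the muscle phosphofructokinase, to 2.15-fold in Pdk1, a pyruvate dehydrogenase kinase. The single rise was that of Bpgm, bisphosphoglycerate mutase, by 1.75-fold. The median log2 fold change was −0.22 over the members and −0.01 over all tested genes. Of the 35 members 28 had a negative value, against 51.2% of all tested genes. In 14 members all WWv libraries were below all WT libraries, and in 1, Bpgm, all were above, against 7.84% and 8.03% of all tested genes. In each of the 20 called members all 5 WWv libraries differed from the WT mean in the direction of the call.

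**Figure D1:**
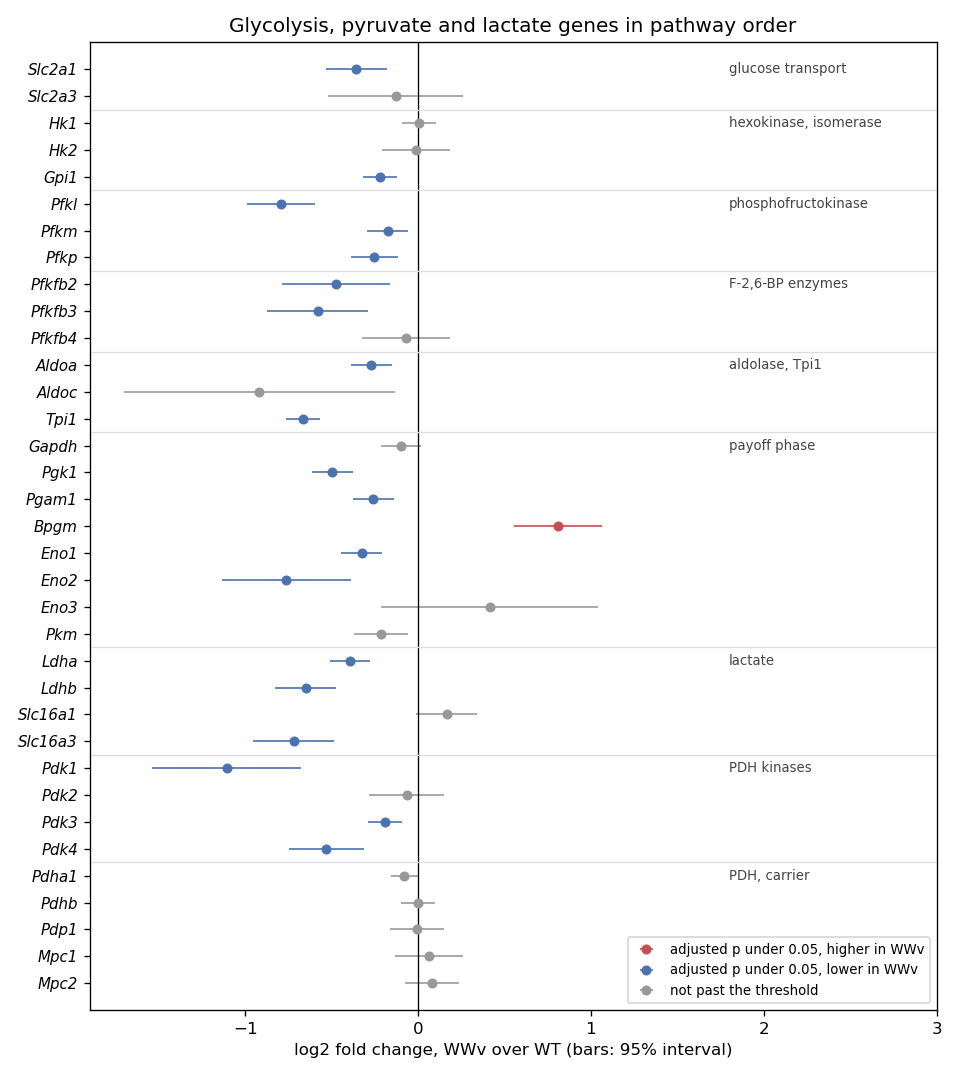
Log2 fold change of WWv over WT (x axis) for the 35 genes (y axis, in pathway order), with points coloured by call and bars for 95% intervals. The 19 lower genes lie between −1.11 and −0.17, Bpgm is the only higher one at 0.81, and the hexokinases, pyruvate dehydrogenase subunits and pyruvate carrier genes lie near 0.

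The calls were spread over the pathway up to the pyruvate dehydrogenase kinases. Lower were 1 of 2 glucose transporters, 1 of 3 genes of the hexokinase and isomerase steps, 3 of 3 phosphofructokinases, 2 of 3 Pfkfb genes, and 2 of 3 genes of aldolase and triose phosphate isomerase. In the payoff phase 4 of 8 genes were lower and 1 was higher. Among lactate dehydrogenases and monocarboxylate transporters 3 of 4 were lower, and so were 3 of 4 pyruvate dehydrogenase kinases. None of the 5 genes of pyruvate dehydrogenase, its phosphatase and the pyruvate carrier passed, and their median log2 fold change was 0.00, but with library size alone as the scaling 1 of them, Pdha1, was called lower.

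With WT 2 left out, 20 members were lower and 2 higher, where 23.5% and 22.7% of all tested genes were called. Without that library 19 members lay wholly below WT and 2 wholly above it. The matching shares over all tested genes were not computed, so these counts have no background beside them. In Slc2a1, Pfkfb2, Pfkfb3, Eno2 and Pdk1, the 5 called members with overlap, WT 2 was the only WT library inside the WWv range. The members gained were Aldoc (log2 fold change −1.16, adjusted p = 0.00508) and, upward, Slc16a1 (0.25, adjusted p = 0.0105).

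**Figure D2:**
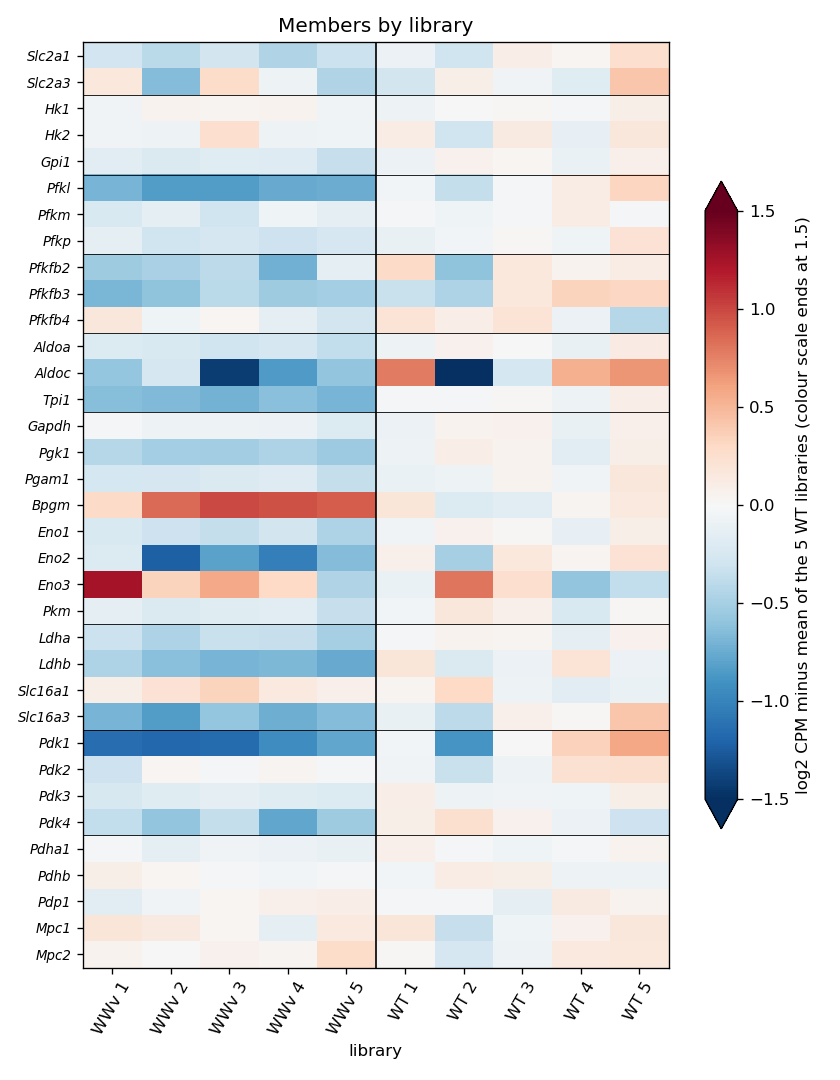
Log2 CPM of each gene (rows, pathway order) minus its mean over the 5 WT libraries, for the 5 WWv libraries on the left and the 5 WT libraries on the right, with blue for lower and red for higher and a colour scale that ends at 1.5. The WWv columns are mostly blue and alike, Bpgm is red in WWv, and WT 2 is the bluest WT column for Pdk1, Eno2, Pfkfb2 and Pfkfb3.

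Promoters are shown for 6 members: 5 that fell, at the steps of triose phosphate isomerase, phosphoglycerate kinase, lactate dehydrogenase, lactate export and pyruvate dehydrogenase kinase, and the 1 that rose. They come from RefSeq (GRCm38.p6) and run from 250 bases before to 50 after a start site, 5′ to 3′ on the gene's strand. Capitals mark ACGTG or GCGTG read on either strand, the cores of sites that hypoxia-inducible factors bind, and CACGTG, which reads the same on both strands, counts on each. The windows lie at chr7:46845554-46845853 (plus strand) for Ldha, chrX:106186850-106187149 (plus) for Pgk1, chr11:120948817-120949116 (plus) for Slc16a3, chr2:71872974-71873273 (plus) for Pdk1, chr6:124814109-124814408 (minus) for Tpi1 and chr6:34476106-34476405 (plus) for Bpgm.
Ldha: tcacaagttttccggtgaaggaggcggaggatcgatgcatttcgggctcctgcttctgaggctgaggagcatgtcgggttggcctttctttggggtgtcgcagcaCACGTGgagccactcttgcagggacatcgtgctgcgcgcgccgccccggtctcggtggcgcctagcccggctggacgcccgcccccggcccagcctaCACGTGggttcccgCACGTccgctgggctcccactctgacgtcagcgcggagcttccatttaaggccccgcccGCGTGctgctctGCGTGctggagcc
Pgk1: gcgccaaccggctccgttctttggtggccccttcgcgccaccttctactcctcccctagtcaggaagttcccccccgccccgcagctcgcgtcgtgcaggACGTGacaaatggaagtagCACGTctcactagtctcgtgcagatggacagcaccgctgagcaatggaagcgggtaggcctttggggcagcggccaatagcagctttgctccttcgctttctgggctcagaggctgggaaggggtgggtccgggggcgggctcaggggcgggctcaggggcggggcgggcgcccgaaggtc
Slc16a3: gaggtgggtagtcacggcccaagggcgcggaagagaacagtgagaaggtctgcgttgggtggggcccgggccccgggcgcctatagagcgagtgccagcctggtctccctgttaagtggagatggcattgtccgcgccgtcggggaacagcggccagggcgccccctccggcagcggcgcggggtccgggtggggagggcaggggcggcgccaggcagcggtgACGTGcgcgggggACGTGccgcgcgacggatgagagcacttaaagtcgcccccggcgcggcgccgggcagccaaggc
Pdk1: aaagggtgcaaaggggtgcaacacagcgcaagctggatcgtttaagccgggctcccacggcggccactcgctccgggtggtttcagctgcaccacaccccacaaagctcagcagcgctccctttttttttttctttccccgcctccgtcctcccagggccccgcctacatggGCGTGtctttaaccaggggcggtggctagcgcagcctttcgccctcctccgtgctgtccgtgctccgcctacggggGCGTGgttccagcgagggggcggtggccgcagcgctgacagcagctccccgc
Tpi1: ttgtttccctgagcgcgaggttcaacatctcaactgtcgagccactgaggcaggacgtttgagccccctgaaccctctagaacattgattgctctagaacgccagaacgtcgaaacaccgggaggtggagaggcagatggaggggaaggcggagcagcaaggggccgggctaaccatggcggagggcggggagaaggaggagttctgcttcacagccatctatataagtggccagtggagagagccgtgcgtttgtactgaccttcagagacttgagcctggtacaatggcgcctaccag
Bpgm: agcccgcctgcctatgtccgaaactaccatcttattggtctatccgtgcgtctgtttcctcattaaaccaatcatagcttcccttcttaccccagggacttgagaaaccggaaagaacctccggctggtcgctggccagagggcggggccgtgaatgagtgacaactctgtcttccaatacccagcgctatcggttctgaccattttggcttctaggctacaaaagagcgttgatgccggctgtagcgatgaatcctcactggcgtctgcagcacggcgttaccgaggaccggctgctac
The Ldha window holds ACGTG 5 times over both strands and GCGTG 2 times, and those of Pgk1 and Slc16a3 hold ACGTG 2 times each. That of Pdk1 holds GCGTG 2 times, and those of Tpi1 and Bpgm hold neither.

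RefSeq windows matched 33 of the 35 members, some with several start sites, and not Slc2a3 or Pdp1. ACGTG was found in at least 1 window of 18 of the 33 (54.5%) and GCGTG in 23 (69.7%), against 28.9% and 55.1% of the 10942 tested genes with a window. Counted per window, 44.0% of the 50 windows of members held ACGTG and 58.0% held GCGTG. The 13996 windows of tested genes had 24.8% and 49.2%. All 32851 windows of this length that RefSeq gave, untested genes included, had 19.6% and 32.4%. The first motif, ACGTG, was in 10 of the 19 lower members (52.6%) and in 8 of the 13 that did not pass (61.5%), and GCGTG in 13 (68.4%) and 10 (76.9%). These are matches of letters, with no test made of them.

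Glucose enters through Slc2a1, the widespread transporter GLUT1 (ENSMUSG00000028645.11), which averaged 91.6 ± 4.63 CPM in WWv and 117 ± 16.6 CPM in WT (SD, n = 5 each), a log2 fold change of −0.36 ± 0.09 (SE, adjusted p = 0.0138). WT 2, at 94.7 CPM, lay among the WWv libraries, which ran from 85.5 to 96.1 CPM, and the other WT libraries started at 109.9 CPM. Slc2a3, the high-affinity transporter GLUT3, was low in both groups at 3.10 ± 0.814 and 3.40 ± 0.667 CPM (−0.13, adjusted p = 0.646). Slc2a1 took 98.4% of the summed level of the pair, per kilobase of exon, in WWv and 98.6% in WT.

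The hexokinases trap glucose in the cell as glucose-6-phosphate. Hk1, the housekeeping form, averaged 165 ± 6.16 CPM in WWv and 164 ± 7.34 CPM in WT, a log2 fold change of 0.01 with a 95% interval of −0.08 to 0.10. Hk2, the inducible form, averaged 68.4 ± 7.39 and 68.8 ± 9.21 CPM (−0.01, interval −0.21 to 0.19). The sign of both turned under some of the alternative settings. Gpi1, phosphoglucose isomerase, which turns glucose-6-phosphate into fructose-6-phosphate, was lower, at 319 to 361 CPM in WWv and 380 to 428 CPM in WT (−0.22 ± 0.05, adjusted p = 0.0133). It shares exon sequence with Gm26762 on the opposite strand, and that call was just missed with the replicate number as a block (adjusted p = 0.0504).

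All 3 genes of phosphofructokinase subunits were lower, with no overlap. Pfkl, the liver-type subunit (ENSMUSG00000020277.10, chromosome 10, 77986947 to 78010083, minus strand, mm10), stood at 124, 113, 113, 119 and 120 CPM in WWv replicates 1 to 5. In WT replicates 1 to 5 it stood at 197, 158, 197, 218 and 252 CPM. The WWv libraries were nearly level, the WT libraries were spread with WT 2 lowest, and the groups did not overlap (log2 fold change −0.79 ± 0.10, adjusted p = 0.000712). Pfkp, the platelet-type subunit, averaged 61.4 ± 3.12 CPM in WWv and 73.1 ± 6.85 CPM in WT (−0.25 ± 0.07, adjusted p = 0.0162).

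Pfkm, the muscle-type subunit, differed little, at 31.5 ± 2.02 CPM in WWv and 35.6 ± 1.68 CPM in WT (−0.17 ± 0.06, adjusted p = 0.0373). Its call was lost in 7 of the fits that leave out 1 library: WT 1 and WT 3 to 5, and WWv 1 to 3 (−0.18 to −0.14, adjusted p from 0.062 to 0.0875). Without the low-count filter the call was lost too (adjusted p = 0.085). Pfkm shares exon bases with Gm26513 on the same strand and Senp1 on the other, and Pfkp with Pitrm1 on the other, so some of their reads are uncertain. The make-up of the family shifted: per kilobase of exon, Pfkl took 55.8 ± 0.964% of the phosphofructokinase level in WWv and 65.2 ± 3.15% in WT. Pfkm took 29.8 ± 1.57% in WWv and 23.0 ± 2.44% in WT, and neither share overlapped between the groups. The share of Pfkp was 14.5 ± 0.723% in WWv and 11.8 ± 1.13% in WT, which overlapped. With the length of coding transcripts in place of all exons it was 29.6% and 24.3% with no overlap. By that length Pfkm took 18.4% in WWv and 14.4% in WT, less than Pfkp, and Pfkl took 52.0% and 61.4%. The shares of Pfkm and Pfkl did not overlap by that length either.

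Of the enzymes that set fructose-2,6-bisphosphate, Pfkfb3, whose kinase activity far exceeds its phosphatase activity, stood at 23.1, 24.4, 28.0, 25.6 and 26.0 CPM in WWv replicates 1 to 5, against 29.5, 26.8, 41.3, 46.6 and 45.9 CPM in WT replicates 1 to 5. Only WT 2 lay inside the WWv range, and WT 1 was near it (log2 fold change −0.58 ± 0.15, adjusted p = 0.0161). Pfkfb2, known from heart, stood at 6.59, 6.83, 7.27, 5.81 and 8.65 CPM in WWv replicates 1 to 5 and at 11.6, 6.30, 10.7, 9.90 and 10.3 CPM in WT replicates 1 to 5.

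WT 2 again lay within WWv for Pfkfb2, and the call was a weak one (−0.47 ± 0.16, adjusted p = 0.0462). It was lost when any WT library but WT 2, or any WWv library but WWv 5, was left out (−0.48 to −0.40, adjusted p from 0.079 to 0.109) and with the replicate block (adjusted p = 0.0597). The call was also lost by limma-voom (adjusted p = 0.0684) and without the low-count filter (adjusted p = 0.0525). Without WT 2 the log2 fold change was −0.59 (adjusted p = 0.00121). Pfkfb2 shares exon bases with Gm29427 on its own strand and Yod1 on the other. Pfkfb4 averaged 6.66 ± 0.782 CPM in WWv and 6.99 ± 1.20 CPM in WT (−0.07, adjusted p = 0.713).

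Aldolase cuts fructose-1,6-bisphosphate into 2 triose phosphates. Aldoa, the muscle and general form and the member with the highest level per kilobase, stood at 1156, 1142, 1088, 1124 and 1031 CPM in WWv replicates 1 to 5, against 1269, 1400, 1324, 1236 and 1451 CPM in WT replicates 1 to 5. The groups did not overlap, and the difference was small (log2 fold change −0.27 ± 0.06, adjusted p = 0.00893). Aldoc, the brain form, was the lowest of the 35 genes per kilobase, at 0.480 ± 0.133 CPM in WWv and 0.912 ± 0.461 CPM in WT (−0.92 ± 0.40, adjusted p = 0.108).

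Tpi1, triose phosphate isomerase, which interconverts the products of aldolase (ENSMUSG00000023456.15, chromosome 6, 124810586 to 124814296, minus strand), had the smallest adjusted p of the members. It stood at 254, 249, 241, 254 and 243 CPM in WWv replicates 1 to 5. In WT replicates 1 to 5 it stood at 386, 390, 399, 372 and 421 CPM. Both groups were tight and far apart, and WT 2 lay with the other WT libraries (log2 fold change −0.67 ± 0.05, adjusted p = 6.67e-05). Tpi1 was the only member that passed a test against a minimum log2 fold change of 0.5. Its promoter window, printed above, holds neither core motif, and 34 of its 2753 exon bases are shared with Spsb2 on the opposite strand.

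In the payoff phase Pgk1, phosphoglycerate kinase, which makes the first ATP (ENSMUSG00000062070.12, chromosome X, 106187100 to 106203699, plus strand), stood at 159, 150, 149, 155 and 146 CPM in WWv replicates 1 to 5. In WT replicates 1 to 5 it stood at 204, 229, 222, 190 and 227 CPM. The groups lay well apart, with WT 2 the highest library (log2 fold change −0.50 ± 0.06, adjusted p = 0.000464). Pgam1, phosphoglycerate mutase, averaged 76.4 ± 3.34 CPM in WWv and 91.4 ± 7.27 CPM in WT (−0.26 ± 0.06, adjusted p = 0.00909). Eno1, the general enolase, averaged 754 ± 45.9 and 944 ± 56.5 CPM (−0.33 ± 0.06, adjusted p = 0.00405), and neither gene overlapped between the groups.

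Eno2, the neuronal enolase, stood at 28.3, 14.0, 18.7, 16.1 and 20.8 CPM in WWv replicates 1 to 5, against 34.4, 23.1, 36.6, 33.7 and 38.1 CPM in WT replicates 1 to 5. WWv 1 was high and WT 2 low for its group, and no other libraries of the groups crossed (log2 fold change −0.76 ± 0.19, adjusted p = 0.0128). Eno3, the muscle enolase, ran from 41.1 to 133 CPM in WWv and from 37.1 to 97.6 CPM in WT, with the largest coefficient of variation of the members in WWv (42.6%), and did not pass (0.42 ± 0.32, adjusted p = 0.344). Its share of the enolase level per kilobase was 23.3 ± 6.49% in WWv and 15.5 ± 4.88% in WT, with overlap. With coding transcript lengths that share was 11.9% and 7.5%, also with overlap.

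Gapdh, which oxidises glyceraldehyde-3-phosphate and is often used as a reference transcript, averaged 937 ± 40.7 CPM in WWv and 1003 ± 62.4 CPM in WT (−0.10, interval −0.21 to 0.02, adjusted p = 0.227). The annotation holds 196 pseudogenes that match it at 90% identity or more over 200 bases or more, and together they had 7.33% as many counts as the gene. With library size alone as the scaling Gapdh was called lower (−0.18, adjusted p = 0.0472). Pkm, pyruvate kinase, averaged 1187 ± 62.2 and 1377 ± 140 CPM (−0.21 ± 0.08, adjusted p = 0.0572). It passed without WT 4, the lowest WT library (−0.27, adjusted p = 0.0194), by DESeq2 (adjusted p = 0.0294) and with library size alone as the scaling (−0.30, adjusted p = 0.0203). Pkm also passed with upper quartile scaling (−0.23, adjusted p = 0.0421) and with the filter of 1 CPM in 5 libraries (−0.24, adjusted p = 0.0371). The annotated gene Gm49759 shares 767 of the 5001 exon bases of Pkm on the same strand, so the reads cannot be wholly assigned, and splice forms of Pkm were not separated in these counts.

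Bpgm, which makes 2,3-bisphosphoglycerate, the ligand of haemoglobin in red cells, from an intermediate of the payoff phase (ENSMUSG00000038871.5, chromosome 6, 34476207 to 34505613, plus strand), was the only member to rise. It stood at 22.5, 33.3, 36.5, 35.5 and 34.6 CPM in WWv replicates 1 to 5, against 20.8, 16.0, 16.5, 18.9 and 20.4 CPM in WT replicates 1 to 5. WWv 1 was well below the other WWv libraries and only just above WT 1, and the groups did not overlap (log2 fold change 0.81 ± 0.13, adjusted p = 0.00188).

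**Figure D3:**
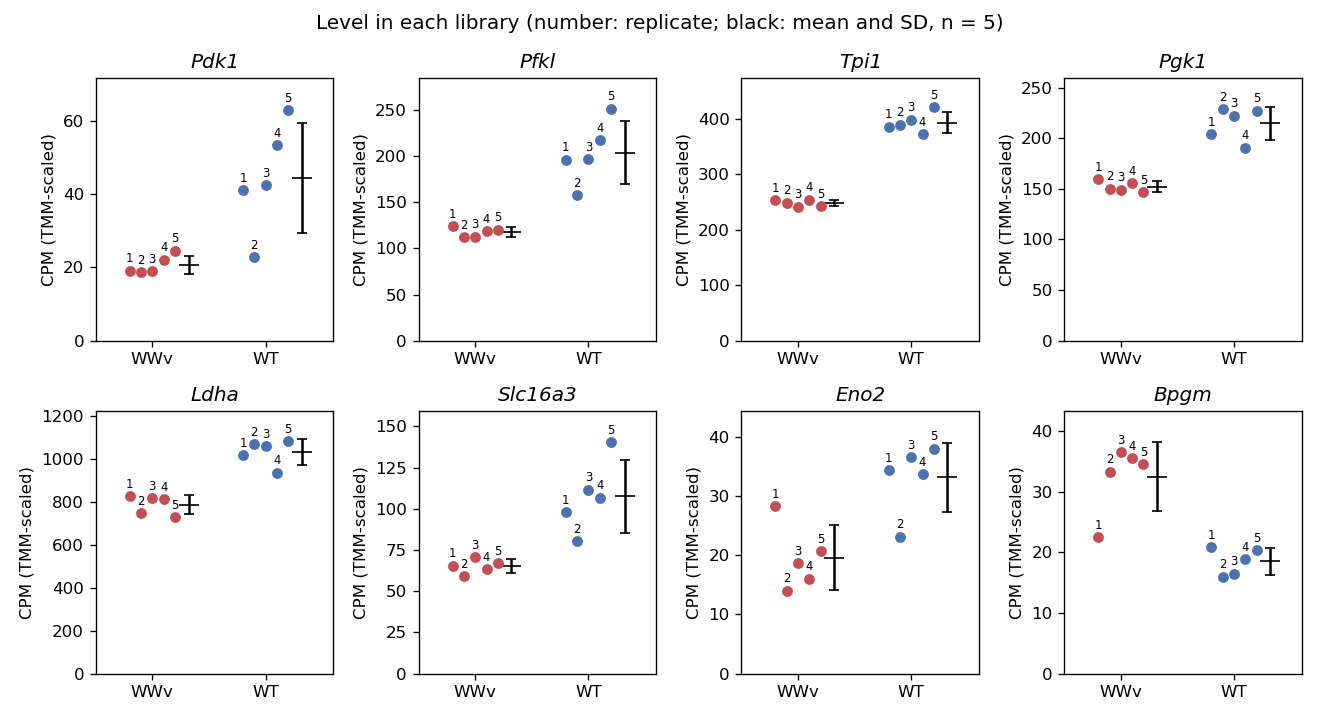
CPM (y axis, from 0) of 8 members in each library, with WWv on the left and WT on the right of each panel, numbers for replicates and black marks for the mean and SD (n = 5 each). Tpi1, Pfkl, Pgk1, Ldha and Slc16a3 are lower in WWv without overlap, Bpgm is higher, and WT 2 falls into the WWv range for Pdk1 and Eno2.

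Lactate dehydrogenase turns pyruvate into lactate and back. Ldha, which encodes its muscle-type subunit (ENSMUSG00000063229.15, chromosome 7, 46841475 to 46855627, plus strand), stood at 828, 748, 816, 812 and 729 CPM in WWv replicates 1 to 5. In WT replicates 1 to 5 it stood at 1016, 1069, 1060, 936 and 1082 CPM. No WWv library reached the lowest WT library (log2 fold change −0.39 ± 0.06, adjusted p = 0.00153). Ldhb, which encodes the heart-type subunit, stood at 13.1, 11.7, 11.2, 11.3 and 10.7 CPM in WWv replicates 1 to 5 and at 20.5, 15.6, 17.0, 20.9 and 17.0 CPM in WT replicates 1 to 5. It too was without overlap (−0.65 ± 0.09, adjusted p = 0.00115). Ldha took 97.0 ± 0.193% of the level of the pair per kilobase in WWv and 96.4 ± 0.650% in WT.

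The exporter Slc16a3, the low-affinity lactate transporter MCT4 (ENSMUSG00000025161.16, chromosome 11, 120948480 to 120960868, plus strand), stood at 65.4, 59.3, 70.8, 63.5 and 67.2 CPM in WWv replicates 1 to 5. In WT replicates 1 to 5 it stood at 98.0, 80.4, 112, 107 and 141 CPM. The groups did not overlap, and of the WT libraries WT 2 was lowest and WT 5 highest (log2 fold change −0.72 ± 0.12, adjusted p = 0.00245). Slc16a1, the higher-affinity transporter MCT1, averaged 19.3 ± 1.44 CPM in WWv and 17.2 ± 2.32 CPM in WT and did not pass (0.17 ± 0.09, adjusted p = 0.191). Slc16a3 made up 73.8 ± 1.70% of the level of the pair per kilobase in WWv and 83.4 ± 4.57% in WT, with no overlap. With coding transcript lengths that share was 86.2% and 91.7%, also with no overlap.

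Pyruvate dehydrogenase kinases hold pyruvate out of the mitochondrial oxidation route by phosphorylating pyruvate dehydrogenase. Pdk1 (ENSMUSG00000006494.11, chromosome 2, 71873224 to 71903858, plus strand) had the largest fall of the members, at 19.1, 18.6, 19.0, 22.2 and 24.6 CPM in WWv replicates 1 to 5. In WT replicates 1 to 5 it stood at 41.1, 22.8, 42.5, 53.4 and 63.0 CPM. WT 2 lay inside the WWv range and the other WT libraries far above it (log2 fold change −1.11 ± 0.22, adjusted p = 0.00499), and without WT 2 the value was −1.27 (adjusted p = 5.66e-05).

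Pdk4, the kinase induced by fasting and fatty acids, stood at 37.4, 31.9, 37.6, 28.2 and 33.2 CPM in WWv replicates 1 to 5, against 51.3, 57.1, 50.3, 45.5 and 38.7 CPM in WT replicates 1 to 5. Here WT 2 was the highest WT library and WT 5 came closest to WWv, without overlap (−0.53 ± 0.11, adjusted p = 0.00584). Pdk3 was slightly lower, at 36.3 ± 0.831 CPM in WWv and 41.5 ± 2.47 CPM in WT (−0.19 ± 0.05, adjusted p = 0.0143), also without overlap. Pdk2 averaged 13.8 ± 1.30 and 14.4 ± 2.33 CPM (−0.07, adjusted p = 0.689). Within the family and per kilobase, Pdk3 took 46.1 ± 1.25% in WWv and 40.2 ± 1.43% in WT, with no overlap, and Pdk1 took 8.65 ± 1.12% in WWv and 14.1 ± 4.46% in WT, with overlap.

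**Figure D4:**
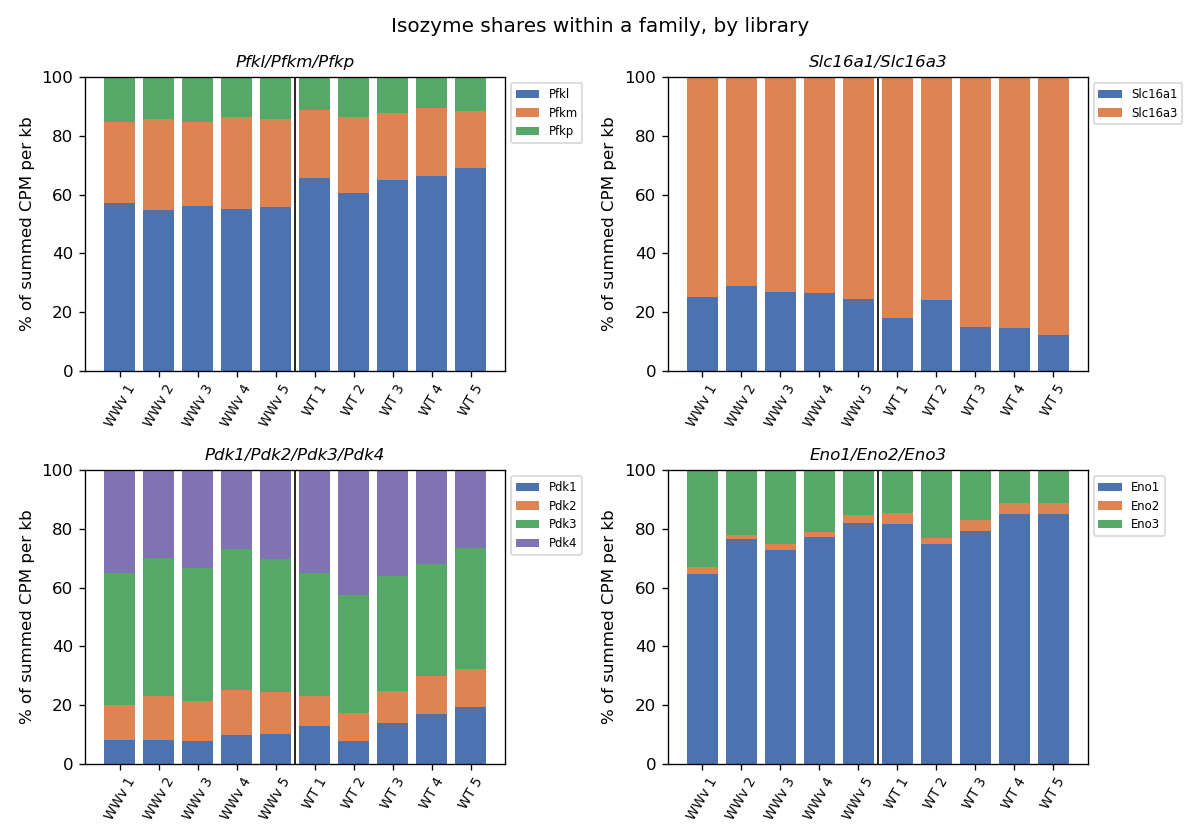
Share of each isozyme in the summed CPM per kilobase of exon of its family (y axis, percent) in each library (x axis, WWv left of the line, WT right of it). The share of Pfkl lies between 54.6 and 57.0% in WWv and between 60.4 and 69.1% in WT, and that of Slc16a3 between 71.3 and 75.6% in WWv and between 76.1 and 88.0% in WT.

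The 5 members that carry pyruvate into mitochondria, oxidise it or reactivate the enzyme that does so did not pass. Pdha1 and Pdhb, the alpha and beta subunits of the first pyruvate dehydrogenase component, had log2 fold changes of −0.08 (95% interval −0.17 to 0.01) and 0.00 (−0.10 to 0.10), and Pdha1 was called lower with library size alone as the scaling (−0.16, adjusted p = 0.0191). Pdp1, the phosphatase that reactivates the complex, stood at 7.90 ± 0.581 CPM in WWv and 7.92 ± 0.580 CPM in WT. Mpc1 and Mpc2, the subunits of the mitochondrial pyruvate carrier, had log2 fold changes of 0.06 (−0.14 to 0.27) and 0.08 (−0.08 to 0.25). Pdhb, Pdp1 and Mpc1 changed sign under some alternative settings. Mpc1 has 3 pseudogenes that match it in the same way, with 11.6% as many counts, and its reads, like those of Pdha1, also overlap a gene on the opposite strand.

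Summed per kilobase over the isozymes of a step, the WWv level was 63.1% of the WT level at triose phosphate isomerase, 67.8% at phosphofructokinase, 69.0% at monocarboxylate transport and 70.9% at phosphoglycerate kinase. Next came lactate dehydrogenase at 75.7%, pyruvate dehydrogenase kinase at 76.3% and glucose uptake at 78.2%. Closest to WT were glyceraldehyde phosphate dehydrogenase at 93.4%, hexokinase at 100.1% and the pyruvate carrier at 104.9%. The groups did not overlap at phosphoglucose isomerase, phosphofructokinase, aldolase, triose phosphate isomerase, phosphoglycerate kinase, phosphoglycerate mutase, lactate dehydrogenase, monocarboxylate transport and pyruvate dehydrogenase kinase. They overlapped at glucose uptake, hexokinase, glyceraldehyde phosphate dehydrogenase, enolase, pyruvate kinase and the pyruvate carrier. The summed level of all 35 genes was 6364 to 7157 CPM in WWv and 7610 to 8771 CPM in WT.

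Levels per kilobase spanned a wide range. Aldoa was highest at 381 CPM per kilobase in WWv and 459 in WT, and was followed by Ldha, Pkm, Gapdh and Eno1. When coding transcript lengths were used in place of all exons, Ldha and Gapdh exchanged places, while Pkm and Eno1 kept theirs. The lowest were Aldoc, at 0.147 CPM per kilobase in WWv and 0.280 in WT, and Slc2a3, at 0.428 and 0.469. Of the lower members at smaller levels, Pfkfb2 was lowest, at 0.969 CPM per kilobase in WWv and 1.35 in WT. Pdk1, Pfkfb3 and Eno2 lay between 2.66 and 4.16 CPM per kilobase in WWv and between 5.03 and 7.05 in WT. Pfkp stood at 4.58 and 5.46. Slc2a1, Hk1, Aldoa and Gapdh share between 25 and 157 exon bases with genes on the opposite strand, a small part of their length.

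Over the 35 members, levels varied less between WWv libraries than between WT libraries. The median coefficient of variation of the members was 6.54% in WWv and 11.97% in WT, and 8.30% in WT without WT 2. With WT 2 included, the coefficient was smaller in WWv for 28 of the 35 genes. WT 2 was the lowest WT library in 16 members, among them 10 of the 19 lower ones, and the highest in 6, namely Pgk1, Eno3, Pkm, Slc16a1, Pdk4 and Pdhb. WT 5 was the highest WT library in 18 members, and WWv 1 the highest WWv library in 16.

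Other genes of glucose metabolism were read from the same fit, from lists of 68 genes of which 53 were tested. Higher were 8 and lower 13, where 12.8% and 15.4% of all tested genes were called, and the median log2 fold change was 0.02. The falls lay in glycogen (5 of 10 lower), the pentose phosphate pathway (3 of 8 lower, 1 higher), further pyruvate dehydrogenase and monocarboxylate genes (3 of 8 lower, 2 higher), gluconeogenesis (1 of 3 lower) and the redox shuttles (1 of 10 lower, 2 higher). Further glucose transporters had 1 of 7 higher, and further isozymes of glycolysis 2 of 7 higher, with 0 lower in either. Some tissue-restricted isozymes were not detected: Pklr, Pgk2 and Ldhc had 0 counts in all 10 libraries together.

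In the pentose phosphate pathway, which draws glucose-6-phosphate off for NADPH and ribose, G6pdx, its entry enzyme, stood at 76.9 to 101 CPM in WWv and 140 to 187 CPM in WT (log2 fold change −0.82 ± 0.10, adjusted p = 0.000676). H6pd, the form in the endoplasmic reticulum, stood at 354 to 417 and 559 to 741 CPM (−0.76 ± 0.08, adjusted p = 0.000351), and neither overlapped between the groups. Pgd was lower by less (−0.30 ± 0.09, adjusted p = 0.0333) and Rpe higher (0.18 ± 0.05, adjusted p = 0.0237). Pgd was not called without WT 1, WT 3, WWv 2, WWv 3, WWv 4 or WWv 5 (−0.32 to −0.28), nor Rpe without WT 3, WT 4, WWv 1, WWv 3, WWv 4 or WWv 5 (0.15 to 0.18). Exons of G6pdx overlap Ikbkg and those of Rpe overlap Kansl1l on the opposite strand.

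Among the glycogen genes, Gyg, the glycogenin that primes synthesis, averaged 73.1 ± 8.33 CPM in WWv and 124 ± 32.2 CPM in WT (−0.76 ± 0.17, adjusted p = 0.0079), with overlap. Gys1, glycogen synthase, stood at 85.5 to 95.7 CPM in WWv and 98.7 to 152 CPM in WT (−0.50 ± 0.10, adjusted p = 0.00439). The phosphorylase Pygl fell by 0.62 (adjusted p = 0.0238), and its call was lost without WT 4 or WWv 2 (−0.58 in each). Pygm, a low transcript at 0.816 ± 0.157 CPM in WWv and 1.39 ± 0.463 CPM in WT, had −0.76 (adjusted p = 0.0452) and lost its call when any library but WT 2 or WWv 1 was left out (−0.83 to −0.59). Pgm1, phosphoglucomutase, was also lower, by 0.53 (adjusted p = 0.00205) with no overlap. Exons of Gys1 and Pgm1 overlap Ruvbl2 and Itgb3bp on the opposite strand.

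Lactate transporters reach the membrane with the chaperones Bsg and Emb. Emb averaged 59.1 ± 12.8 CPM in WWv and 161 ± 74.7 CPM in WT (log2 fold change −1.45 ± 0.34, adjusted p = 0.0102). The WT 2 library, at 49.98 CPM, was inside the WWv range of 47.5 to 80.8 CPM. Bsg, the partner of both transporters described above, had −0.19 ± 0.06 (adjusted p = 0.0489), a call lost in every fit that leaves out 1 library except WT 2 (−0.20 to −0.15). Pdp2, the other phosphatase of the complex, was lower (−0.38, adjusted p = 0.0287) but not without WT 4, WT 5, WWv 2, WWv 3 or WWv 4 (−0.38 to −0.33). Dlat, the acetyltransferase core of pyruvate dehydrogenase, was higher (0.24, adjusted p = 0.036), but kept the call only without WT 2 or WWv 5 among the fits that leave out 1 library (0.20 to 0.24). Pdhx, its binding protein, was called at 0.19 (adjusted p = 0.0454) only in the full set and without WT 2 (0.15 to 0.21 otherwise).

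Pcx, pyruvate carboxylase, had −0.34 (adjusted p = 0.0212; not called without WT 1 or WWv 3, −0.32 to −0.30). Slc2a13, an inositol transporter of the glucose transporter family, had 0.37 (adjusted p = 0.0276; not called without WWv 2, WWv 3 or WWv 4, 0.34 to 0.37). The ADP-dependent glucokinase Adpgk had 0.14 (adjusted p = 0.0187; not called without WWv 3 or WWv 4, 0.13). Minpp1, which can dephosphorylate 2,3-bisphosphoglycerate, had 0.23 (adjusted p = 0.0208), and its call was lost without WT 1, WT 5, WWv 2, WWv 3 or WWv 4 (0.20 to 0.23). Adpgk and Minpp1, like Emb, share exon bases with another annotated gene.

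Of the malate-aspartate shuttle, which carries glycolytic electrons into mitochondria, the cytosolic aminotransferase Got1 averaged 37.5 ± 2.15 CPM in WWv and 29.3 ± 3.15 CPM in WT (0.36 ± 0.07, adjusted p = 0.00654). The aspartate-glutamate carrier Slc25a13 had 0.46 (adjusted p = 0.0413), a call lost in each fit that leaves out 1 library other than WT 2 (0.39 to 0.47). The carrier Slc25a11 had −0.16 ± 0.04 (adjusted p = 0.00814), with no overlap between the groups.

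**Figure D5:**
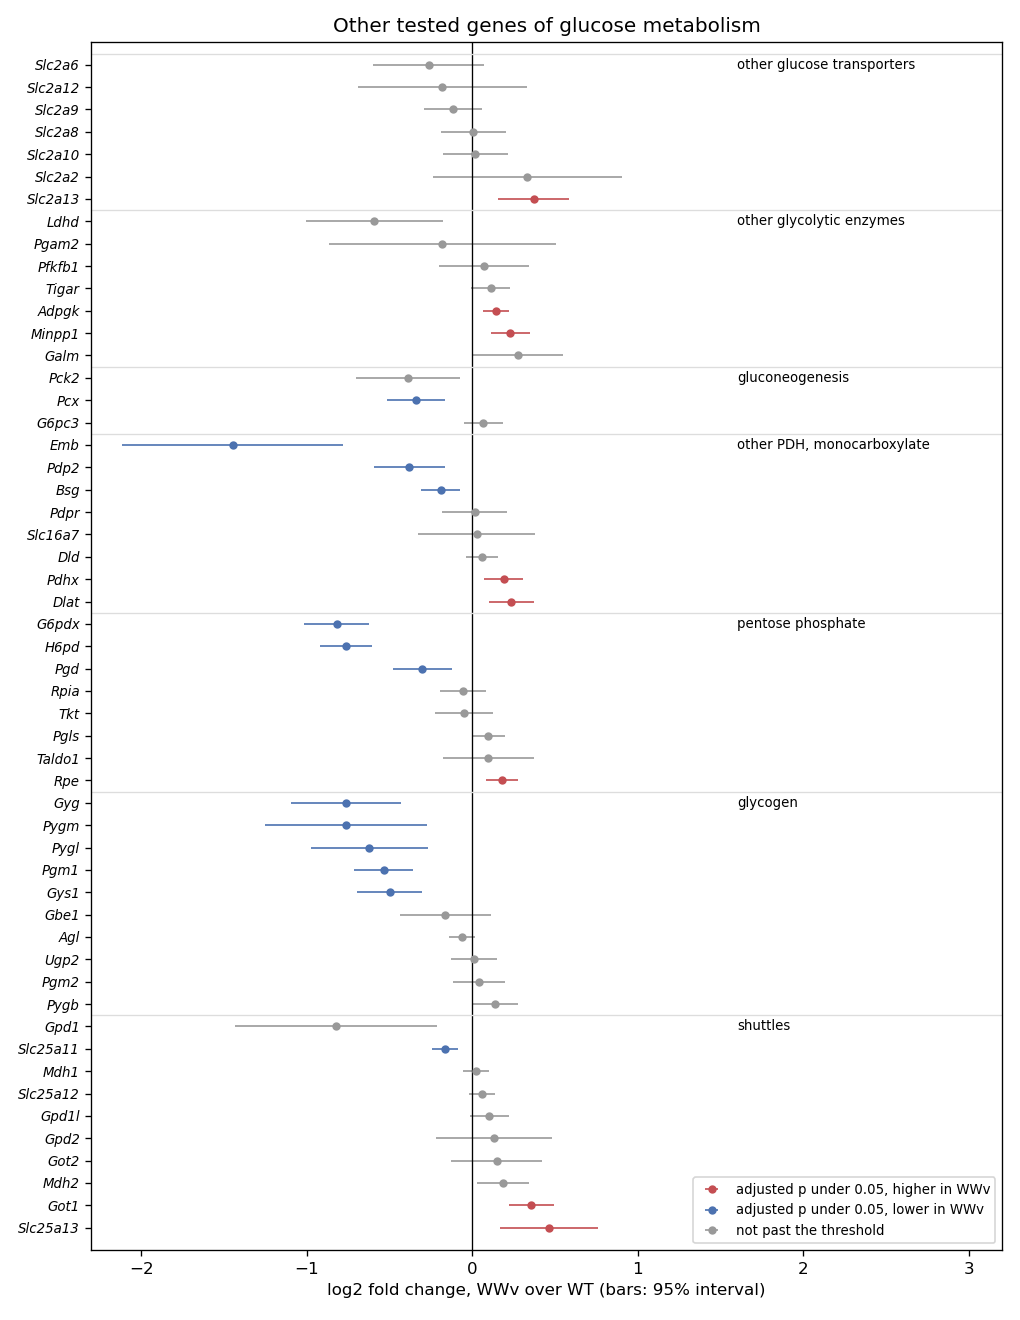
Log2 fold change of WWv over WT (x axis) for the 53 tested genes of the related lists (y axis, grouped by list), with points coloured by call and bars for 95% intervals. Emb at −1.45 and G6pdx at −0.82 lie farthest to the left among the called genes, and the highest called value is that of Slc25a13 at 0.46.

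Of 21 genes that regulate glycolytic transcription or sense energy, 19 were tested, 2 were higher and 6 lower. Epas1, which encodes the hypoxia-inducible factor HIF-2 alpha, averaged 86.0 ± 11.5 CPM in WWv and 42.8 ± 22.8 CPM in WT (log2 fold change 1.01 ± 0.27, adjusted p = 0.018). WT 2, at 83.6 CPM, lay within the WWv range of 70.0 to 97.9 CPM. Hif1a, which encodes HIF-1 alpha, had 148 ± 10.3 CPM in WWv and 196 ± 43.2 CPM in WT (−0.41 ± 0.13, adjusted p = 0.0441), and the call was lost in every fit that leaves out 1 library except WT 2 (−0.44 to −0.30). HIF proteins are set mainly by oxygen-dependent breakdown, which these counts do not measure.

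Mxi1, a MYC antagonist and a target of HIF-1, stood at 8.19 to 10.8 CPM in WWv and 11.6 to 16.4 CPM in WT (−0.53 ± 0.10, adjusted p = 0.00489). Egln3, an oxygen-sensing hydroxylase that is itself a HIF target, had −0.49 (adjusted p = 0.0344), but was not called without WT 3, WT 5, WWv 1, WWv 2, WWv 4 or WWv 5 (−0.53 to −0.35). Arrdc4, a glucose-responsive arrestin that lowers glucose uptake, had −0.43 ± 0.08 (adjusted p = 0.00327), whereas its relative Txnip was not past the threshold (0.17, adjusted p = 0.304). Prkaa2, a catalytic subunit of AMP-activated protein kinase, had 0.30 ± 0.07 (adjusted p = 0.0084).

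Other measures moved with the groups too, and their part in the differences was not tested. Cell cycle genes had a mean level of 5.68 to 5.86 log2 CPM in WWv and of 5.04 to 5.22 in 4 WT libraries. WT 2 stood at 5.79, and 11 of the 16 genes were called higher. The calls of Mcm3 and Mcm5 were lost in 9 of the fits that leave out 1 library. Those of Top2a and Ccna2 were lost in 8 and that of Mcm6 in 4. Fibroblast markers summed to 234 to 370 CPM in WWv and 369 to 631 CPM in WT, with 4 of 6 lower, and smooth muscle markers were higher in 5 of 6. Endothelial markers summed to 65.8 to 156 CPM in WWv and 44.3 to 70.5 CPM in 4 WT libraries, with WT 2 at 233 CPM, and 0 of 6 were called. Macrophage markers summed to 20.7 to 25.6 and 20.4 to 40.8 CPM, with 0 of 5 tested called and Ptprc and Adgre1 at 154 and 60 counts in all libraries together.

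Adipocyte markers summed to 15.3 to 21.6 CPM in WWv and 23.5 to 34.6 CPM in WT, nearly all from Fabp4 and Pparg. Of the 2 tested adipocyte markers 1 was called higher and 1 lower. The defining Adipoq, Plin1, Lep and Cidec had 4, 17, 1 and 6 counts in all libraries together. Skeletal and cardiac muscle markers summed to 48.0 to 90.4 CPM in WWv and 19.2 to 37.4 CPM in WT, mostly from Acta1, with Ckm, Myh4 and Myh6 at 6, 7 and 6 counts. With library size alone as the scaling, 21.5% of all calls were higher in place of 45.4%, 22 members were lower and the median of the members was −0.31.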

How the data were processed

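The 10 libraries, 5 WWv and 5 WT by the labels, were analysed from the deposited table of raw counts, which lists 54446 Ensembl IDs with versions. The submitters' processing notes name bcl2fastq 2.17, Trim Galore 0.4.3, STAR 2.5.2a and the build mm10. How reads were counted, with which strand setting and annotation, is not given in the sources used here, so genes that share exon bases with another gene or have closely matching pseudogenes are uncertain. Per the labels' protocols, the library kit was Nugen Universal Plus mRNA-Seq.

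Symbols, positions and exon lengths came from GENCODE M21 (GRCm38). The members and the lists were chosen with earlier results of these data known. The test was edgeR 4.0.16 (R 4.3.3), quasi-likelihood, two-sided, with TMM, filterByExpr at a minimum count of 10 (15181 genes kept), group as the only term and Benjamini-Hochberg adjustment at 0.05, and every adjusted p comes from it unless another tool is named. CPM values were scaled with the TMM factors, and ± is the SD of 5 libraries or, after a log2 fold change, the SE. Intervals of 95% come from the SE by the normal distribution. Levels per kilobase use the union of a gene's exons or, as an alternative chosen after seeing the data, the median coding transcript. Values in every library are given for the 12 called members with the largest change, for the highest member per kilobase and for every higher member. Of each other list up to 4 called genes with the largest change are named, and Gys1, Bsg, Hif1a, Prkaa2, Txnip and the isozymes with 0 counts were named after their values were seen. Proteins were not analysed here.

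On counts simulated for this comparison over 15181 genes, 65.8% of 1.5-fold, 82.0% of 2-fold and 98.5% of 4-fold changes were recovered, with 6 false calls among 169. The replicate numbers of the titles did not pair the libraries, so the main fit has no block. Alternatives were other scalings and filters, DESeq2 1.42.0, limma-voom (3.58.1), the block, other thresholds and leaving out libraries.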

Additional observations from a re-analysis of the deposited data

Results flagged for a closer look

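Of 70 groups of 5 libraries (35 genes in WWv and in WT), 6 held a library whose gap to its nearest neighbour was above Dixon's 95% critical value as a share of the group's range, where chance flags about 1 in 20 groups. In WWv these were Hk2 in WWv 3 at 81.6 CPM, Bpgm in WWv 1 at 22.5 CPM, Pdk2 in WWv 1 at 11.5 CPM and Mpc2 in WWv 5 at 27.2 CPM. In WT they were Pfkm in WT 4 at 38.5 CPM and Eno2 in WT 2 at 23.1 CPM. Among these genes Pfkm, Bpgm and Eno2 were past the threshold.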

How the results depend on the processing

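With the stricter thresholds set aside, the calls of 17 of the 20 called members were kept in every alternative run. Those of Gpi1, Pfkm and Pfkfb2 were not. Fewer calls were kept at the stricter thresholds, which are given below. Members lower numbered 19 with RLE scaling, 20 with upper quartile scaling, 22 with library size only (Gapdh, Pkm and Pdha1 added), 17 without a low-count filter, 20 at 1 CPM in 5 libraries, 20 by DESeq2 and 18 by limma-voom. With the replicate block 17 were lower, and Gpi1 and Pfkfb2 lost their calls. Over all tested genes, lower calls numbered 2334 in the main fit, 2323 with RLE scaling and 2598 with upper quartile scaling. They numbered 2081 without a filter, 2257 at 1 CPM, 2697 by DESeq2, 2153 by limma-voom and 1943 with the block. Same-numbered libraries correlated between −0.09 and 0.31 in their deviations, and WT 2, for example, was the best match of WWv 1, so the block is not a pairing. An adjusted p under 0.01 left 11 lower and 1 higher member, and a minimum log2 fold change of 0.5 left 1 lower (Tpi1) and 0 higher. The shares over all tested genes were not computed at these stricter thresholds, so these counts have no background beside them. Of the related genes, 5 were higher with upper quartile scaling, 2 with library size only, 3 without a filter, 5 at 1 CPM and 4 with the replicate block. With library size only the calls over all genes were 983 higher and 3599 lower and the median of the members −0.31.

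Leaving out 1 library gave 1286 to 3507 higher and 1721 to 3620 lower calls over all genes, 1 to 2 higher and 17 to 20 lower members, 1 to 13 higher and 8 to 16 lower related genes, and member medians of −0.27 to −0.20. The counts above all others were those without WT 2 (3507 and 3620), and the fewest related genes were called higher without WWv 3 or WWv 4 (1 each). Without WT 2 and WWv 1 together there were 3361 higher and 3750 lower calls and 2 higher members.

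Signs turned only in members near 0 that passed in neither direction. Hk1 had −0.01 with upper quartile scaling, −0.08 with library size only, −0.02 at 1 CPM and −0.01 to 0.03 over the fits without 1 library, and Pdhb had −0.02, −0.08, −0.02 and −0.02 to 0.03. Mpc1 had −0.02 with library size only, −0.05 without WT 2 and WWv 1 together and −0.01 (without WT 2) to 0.11 without 1 library. Without 1 library Hk2 had −0.08 to 0.03 and Pdp1 −0.04 to 0.04, and Pdp1 had 0.02 without WT 2 and WWv 1 together. The cause of these changes was not tested. Below about 1 CPM, as in Aldoc, few counts limit what could be detected.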
